A study of Pimephales promelas with 15 samples.

Results

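The most counted transcripts of 7-day fathead minnow larvae were 96 identifiers out of 14279 in the deposited count table. They were selected on their measured level: an identifier listed on 1 or 2 rows, with its rows summed, was taken where its mean over all 15 libraries was 1000 or more counts per 1000000 counts of the library (CPM). The level of a member is therefore given as a description, while differences between the exposure groups played no part in the choice. A further 2 identifiers, Q6IQX1 at a mean of 2924 CPM and F1QJD1 at 1300 CPM, reached the level but were listed on 4 and 3 rows and stayed out.

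The fathead minnow (Pimephales promelas) is a small freshwater fish used in toxicity tests. Adults were fed hexabromocyclododecane (HBCD, a brominated flame retardant) for 49 days, eggs were collected between days 25 and 42, and the young were reared in clean water, having received the compound from their mothers. The solvent control group came from parents given food treated with ethanol that was then evaporated, the low HBCD group from parents given 11.5 mg HBCD per kg food (0.576 mg per kg measured in larvae), and the medium HBCD group from parents given 36.4 mg per kg food (1.77 mg per kg in larvae). Each group held 5 libraries, lettered A to E, and each library was 1 pool of 20 whole animals sampled at 7 days post-fertilization, called embryos in some labels and larvae in others. HBCD in larvae of the controls was under the limit of detection. The labels do not say whether the pools had separate parents, and p-values therefore speak only of the spread between these pools.

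Messenger RNA is spread very unevenly over genes, and in a whole fish larva the most abundant messages are as a rule those of contractile proteins of muscle, ribosomal proteins, translation factors, enzymes of energy metabolism, keratins of the skin and digestive enzymes. Reads in a library add up to a fixed total, so a heavily counted transcript takes a share that all others lose. In whole-animal RNA, fewer cells of a type and less RNA per cell cannot be told apart. Which of these proteins the 96 identifiers stand for is not given here: the files list UniProt or RefSeq protein identifiers without names, and 0 of the 96 matched the reference gene table, so no role is assigned and tissue markers could not be checked. Counts also depend on transcript length, which was not used here, and an order of identifiers by CPM is an order of reads and not of molecules.

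Library totals were 12.6 to 58.4 M (1 M is 1000000) estimated counts. Among the 30 pairs of libraries within groups, solvent control replicates D and E had the smallest spread of log2 ratios over the members. They are the 2 deepest libraries, at 49.3 and 58.4 M. Over the 96 members the log2 ratio of D to E had a standard deviation (SD) of 0.10, against a median of 0.35 for all 30 pairs. The chi-square per degree of freedom between D and E was 14.8 over all identifiers with 5 or more counts in every library, and 11.6 to 91.8 over the 30 pairs, above counting noise in every pair, though 2 preparations of 1 pool could exceed counting noise too. This chi-square grows with depth, so it cannot rank pairs of unlike depth. It was lower in 2 shallower pairs, medium HBCD replicates D and E, at 11.6, and B and C, at 11.8. Over the same identifiers the SD of log2 ratios was smallest of the 30 pairs for solvent control replicates D and E, at 0.22. It was 0.29 and 0.36 for those medium HBCD pairs. Over the members alone the chi-square was lowest for solvent control replicates A and C, at 194, beside 259 for D and E of that group. The SD over the members was larger for A and C, at 0.15, than for D and E, at 0.10. Solvent control replicates D and E were counted separately because the labels list them as separate samples. The number of members with an unadjusted p under 0.05 against control, the members' median, and the fold changes of the members that the authors' tables list are also given without both.

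Together the members held 25.5% of the estimated counts, as a mean over libraries. Of the 96, 10 had a mean above 5000 CPM, 34 between 2000 and 5000 CPM, and 52 between 1000 and 2000 CPM. The first 22 held 50% or more of the members' counts. Every member was counted in every library, the lowest value being 303 CPM, and 72 reached 1000 CPM in all 15 libraries. The same 72 were all the identifiers of the whole table that did so.

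Q7ZT36 was the most counted identifier in 15 of 15 libraries. Its level was 25730, 18601, 24804, 20873 and 20957 CPM in solvent control replicates A to E. In low HBCD it was 20312, 27862, 16307, 18802 and 17322 CPM, and in medium HBCD 24900, 25568, 23564, 19570 and 18486 CPM. Both its highest and its lowest value lay in low HBCD, in replicates B and C, and the 3 groups overlapped. Q7ZT36 took 2.16% of the counts on average, 2.68 times the mean CPM of the next identifier, A2BHA3. Its counts were the sum of 2 rows, of which the smaller held 35.4%.

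The other members of the first 10 were closer to each other. A2BHA3 had a mean of 8057 CPM with a range over libraries of 5584 to 9560 CPM, Q92005 had 7513 CPM (5605 to 8246) and A0A0R4IA56 had 7031 CPM (4972 to 8293). NP_571263.1 had a mean of 6965 CPM (5970 to 8345) and NP_956752.2 one of 6390 CPM (5661 to 7303). XP_003198687.2, with a mean of 6260 CPM, spanned 2493 to 9807 CPM, the widest range of the 10 at 3.93-fold. Q9I8V0 had a mean of 6241 CPM (4241 to 8053), Q66I73 one of 6075 CPM (3913 to 7989) and NP_001007030.1 one of 5762 CPM (3228 to 7967). The ranges overlapped from the second identifier to the tenth, and only 5 identifiers stayed among the first 10 of every library. The lowest rank of XP_003198687.2 in any library was 34 and that of NP_001007030.1 was 24.

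**Figure D1:**
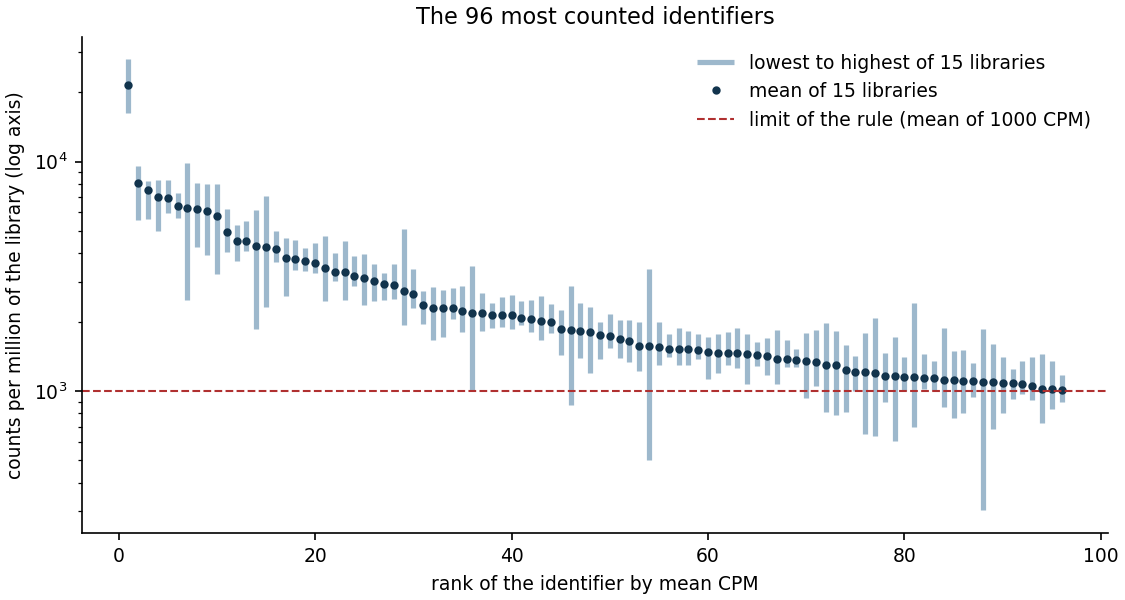
Level of each of the 96 members in CPM on a log axis, ordered by mean, with points for the mean of 15 libraries and bars from the lowest to the highest library. Q7ZT36 stands above the rest at 21577 CPM, and 24 members have a library under the dashed limit of 1000 CPM.

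The limit itself marked no gap. Just inside it were A5WVL6 at 1026 CPM, NP_001098996.1 at 1017 CPM and Q8AY63 at 1010 CPM, which reached 1000 CPM in 7, 8 and 6 of the 15 libraries. Just outside were F1QJN9 at 999 CPM, XP_007240298.1 at 997 CPM and Q6PCR7 at 993 CPM, each of which reached it in 7 libraries.

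Some features that the rule did not name were set beside those of the other identifiers. Curated RefSeq protein records, whose identifiers start with NP_, made up 32 of the 96 members (33.3%) and 14.9% of the other 14047 identifiers with a count. Predicted records, starting with XP_, made up 14 members (14.6%) against 27.1% of the others, and identifiers in UniProt format 50 members (52.1%) against 58.1%. The deposited counts are estimates that divide reads between similar sequences, so a fractional value can mark a target that shared reads. A whole value is harder to read. Values written to a limited number of digits appear whole once the count is large, so whole values can follow level and depth. The part of this was not tested. Of the members' values 53.7% were whole numbers within 1e-06, against 40.2% for the others. Whole values throughout were found for 37 members (38.5%, against 31.4% of the others). No whole value was found for 4 members (4.17%, against 42.0%). As the members were selected on level, these shares do not show that they shared fewer reads. A total of 7 members were listed on 2 rows, with 0.165 to 49.8% of their counts in the smaller row. Counts of identifiers with many fractional values, such as NP_998365.1 with none whole, are uncertain to the extent that near-identical targets shared their reads. Among the 8 members that DESeq2 called in any comparison, whole values made up 6.67% for A0A0R4IVW7, 20% for F1QEX9 and 26.7% for NP_998272.1. They made up 40% for NP_001035074.1, 66.7% for XP_003198687.2, 73.3% for A0A0R4IA56, 93.3% for A2BHA3 and 100% for XP_005805873.1. In heavily counted members such as A2BHA3 and A0A0R4IA56, a high percentage does not show that few reads were shared.

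The members differed in how far they spread between pools of 1 group. For this, CPM values were scaled with TMM factors (trimmed mean of M values, which correct each library for unequal composition), and the SD of log2 CPM was pooled over the 3 groups. The members' median SD was 0.17, with a range of 0.06 to 0.82, against a median of 0.23 over all 13283 identifiers tested and 0.17 over the 1919 tested identifiers between 100 and 1000 CPM. The members thus spread about as much as identifiers counted less heavily by an order of magnitude.

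The steadiest members were NP_998272.1 (SD 0.06), NP_001002155.1 (0.08) and NP_957139.1 (0.08). NP_998272.1 lay between 3341 and 4191 CPM of the library total in all 15 libraries. The least steady were F1QYH3 (SD 0.82), NP_998176.2 (0.78) and F1QJC9 (0.57). F1QYH3 had scaled levels of 1020, 319, 308, 1871 and 1886 CPM in medium HBCD replicates A to E, so that B and C lay below, and D and E above, all 10 libraries of the other groups. Its solvent controls read 877, 931, 966, 1576 and 1247 CPM, and its low HBCD libraries 831, 705, 1478, 1256 and 1135 CPM. NP_998176.2 read 1067, 3381, 1237, 1885 and 1880 CPM in the controls, 489, 767, 913, 758 and 3337 CPM in low HBCD, and 847, 1247, 2101, 1591 and 2135 CPM in medium HBCD. Solvent control replicate B and low HBCD replicate E stood above its other libraries. F1QJC9 ranged from 1872 to 6124 CPM of the library total.

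Members were also grouped by how they varied from pool to pool. When they were clustered on the correlation of their deviations from the group means (average linkage, 3 sets, a number chosen after the data were seen), they fell into sets of 48, 35 and 13 members. Set 1 held 48 members and 9.06% of the counts, with NP_001035074.1, NP_998272.1 and NP_957139.1 among them, and its median SD was 0.12. Set 2 held 35 members and 13.5% of the counts, including Q7ZT36 and 9 of the first 10 identifiers, at a median SD of 0.21. Set 3, with 13 members and 2.96% of the counts, held NP_956752.2 and NP_998176.2 and had a median SD of 0.37. The median correlation between pairs of members within a set was 0.62, 0.50 and 0.76 over the 15 libraries, whose members share each library's depth and scaling.

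The sets did not mark the same libraries. The median member of set 1 was highest, relative to its own mean over 15 libraries, in medium HBCD replicate A, by a log2 of 0.30, and lowest in low HBCD replicate C at -0.18. The median member of set 2 lay lowest in low HBCD replicates C (-0.34) and E (-0.27) and solvent control replicate B (-0.19), and highest in medium HBCD replicates B (0.23) and C (0.21). The median member of set 3 ran opposite to that of set 2 in several of these. It stood at 0.43 in solvent control replicate B and 0.40 in low HBCD replicate E. Solvent control replicates D and E were also high, at 0.34 and 0.37, while A and C were at -0.14 and -0.07. Low HBCD replicates A and B were at -0.59 and -0.55. The sets were chosen on deviations of the same values from their group means, so the pattern is a description with no test.

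**Figure D2:**
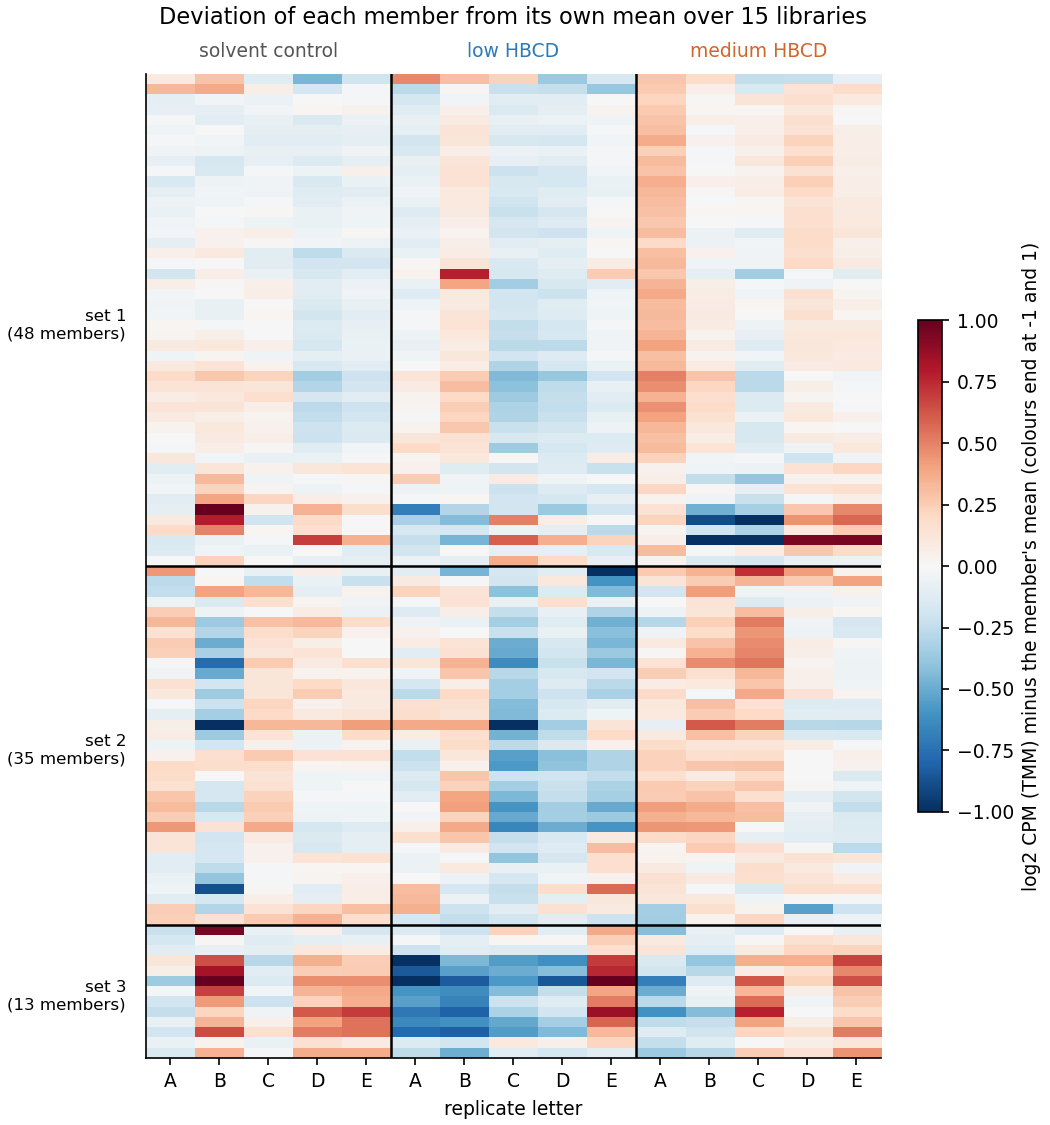
Heat map with 1 row per member, grouped into the 3 sets, and 1 column per library, showing log2 CPM with TMM factors minus the member's mean over 15 libraries. Low HBCD replicates C and D are each above the mean for only 9 of 96 members, and medium HBCD replicate A is above it for 78. Set 3 is highest in solvent control replicates B, D and E and low HBCD replicate E.

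Within groups, the share of a library held by the members varied most in low HBCD. The 96 members held 26.4, 24.9, 26.4, 25.2 and 25.5% of the counts in solvent control replicates A to E. In low HBCD they held 24.5, 26.7, 21.7, 23.1 and 24.4%, and in medium HBCD 28.1, 26.9, 27.2, 25.9 and 25.4%. Group means were 25.7 ± 0.683% (SD, n = 5) in the controls, 24.1 ± 1.85% (SD, n = 5) in low HBCD and 26.7 ± 1.05% (SD, n = 5) in medium HBCD, and the 3 ranges overlapped. Low HBCD replicate B lay above every control. The 10 most counted members showed the same order of group means, 8.36 ± 0.745%, 7.40 ± 1.14% and 8.80 ± 0.857% (SD, n = 5 each). Some deeper libraries of the HBCD groups had smaller shares. Low HBCD replicates C and D, with 26.3 and 35.2 M the deepest of that group, had its smallest shares. Medium HBCD replicates D and E, with 26.4 and 20.7 M, had smaller shares than replicates A to C with 12.6 to 14.4 M. Other libraries went the other way. Low HBCD replicate E, the shallowest of that group at 12.8 M, held less than replicates A (20.0 M) and B (13.3 M). Medium HBCD replicate E held less than the deeper replicate D. In the controls, replicates D and E with 49.3 and 58.4 M lay within the range of the others. The part of depth in these shares was not tested.

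**Figure D3:**
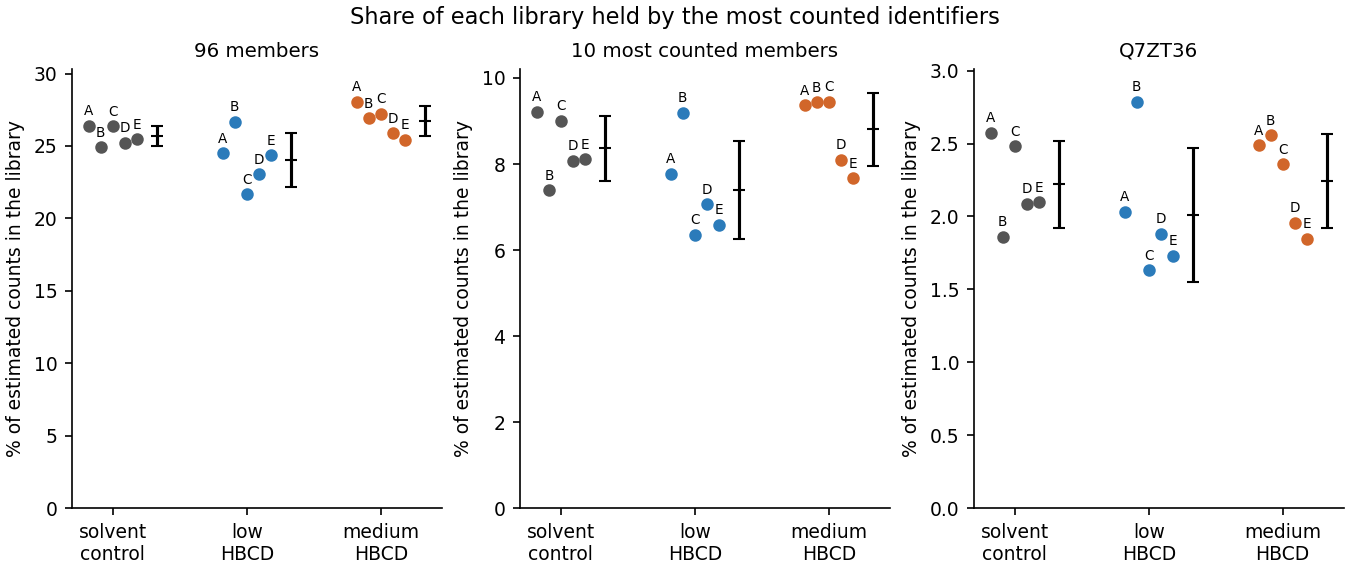
Percentage of each library's estimated counts held by all 96 members, by the 10 most counted members and by Q7ZT36, with 1 lettered point per library and the group mean ± SD beside it. Low HBCD replicates C and D have the smallest shares of the 96 members, 21.7 and 23.1%, while medium HBCD replicate A has the largest, 28.1%.

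Setting low HBCD beside solvent control asked whether larvae carrying the smaller amount of HBCD differed in their most counted transcripts. None of the 96 members passed the test (edgeR quasi-likelihood test with Benjamini-Hochberg adjustment over 13283 identifiers, threshold 0.05), where 0.0527% of all identifiers did, and DESeq2 called 3 members, against 0.692% of the identifiers it tested. At an unadjusted p under 0.05, 15 members were lower, against 4.15% of all identifiers, and 0 were higher, against 3.5%. Of the 96, 70 had a log2 fold change below 0. The median was -0.05, from -0.76 to 0.31, beside 0.01 over all identifiers tested. With library totals in place of TMM factors, 45 rather than 26 members were higher, the members' median was -0.01 and that of all identifiers 0.05. Without low HBCD replicate C the members' median was -0.02, and without replicate B it was -0.11. Without solvent control replicates D and E, 10 members had an unadjusted p under 0.05 and the median was -0.07.

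F1QEX9 gave the smallest p among the members in that comparison. Its scaled level was 1365, 1286, 1390, 1476 and 1301 CPM in solvent control replicates A to E, and 1025, 980, 1018, 1070 and 1007 CPM in low HBCD. In medium HBCD it was 913, 1185, 1339, 1102 and 1112 CPM. All 5 low HBCD libraries of F1QEX9 lay below all 5 controls, while the medium group overlapped both. The mean was 1364 ± 76.4 CPM (SD, n = 5) in the controls and 1020 ± 32.6 CPM (SD, n = 5) in low HBCD, a 0.748-fold ratio, and the log2 fold change was -0.42 (SE 0.09, adjusted p = 0.116 by edgeR). DESeq2 gave F1QEX9 an adjusted p of 0.000311. Against the same controls, F1QEX9 in medium HBCD had a log2 fold change of -0.27 (95% interval -0.45 to -0.09, adjusted p = 0.494 by edgeR). Of the 96 members 4 had low HBCD libraries that were all below the controls, against 0.851% of all identifiers, and 0 had them all above, against 0.678%.

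A2BHA3 and A0A0R4IA56, both among the first 10, showed a second pattern, low in low HBCD and not in medium HBCD. A2BHA3 stood at 9165, 8983, 8976, 8107 and 8175 scaled CPM in the controls, at 6871, 8196, 5354, 6014 and 6451 in low HBCD, and at 9351, 9648, 9730, 7987 and 8217 in medium HBCD. In low HBCD, 4 of its 5 libraries lay below every control, and replicate B lay within the control range. Its log2 fold change was -0.40 in low HBCD (SE 0.10, adjusted p = 0.288 by edgeR), with a DESeq2 adjusted p of 0.0146, and 0.05 in medium HBCD (95% interval -0.17 to 0.27).

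A0A0R4IA56 followed the same libraries. It stood at 7180, 7824, 8356, 7695 and 7693 scaled CPM in the controls, at 5873, 7538, 4766, 5219 and 5635 in low HBCD, and at 8155, 7809, 7842, 6984 and 7218 in medium HBCD. Again only replicate B of low HBCD reached the control range. Its log2 fold change was -0.42 in low HBCD (SE 0.10, adjusted p = 0.250 by edgeR; 0.00965 by DESeq2) and -0.03 in medium HBCD (95% interval -0.25 to 0.19). Without low HBCD replicate B, its highest library of that group, A0A0R4IA56 passed the edgeR test in low HBCD with a log2 fold change of -0.53. Over all omissions of 1 library this log2 fold change ranged from -0.53 to -0.35, and that of A2BHA3 from -0.49 to -0.34. The member of smallest p that was higher in low HBCD, O42364, had a log2 fold change of 0.29 (95% interval -0.06 to 0.63, adjusted p = 0.751 by edgeR). Low HBCD replicate B of O42364 stood at 1894 scaled CPM, the other 4 at 985 to 1313, and without replicate B its log2 fold change was 0.10. Without solvent control replicates D and E, the log2 fold changes in low HBCD were -0.40 for F1QEX9, -0.46 for A2BHA3, -0.42 for A0A0R4IA56 and 0.26 for O42364, and none passed the edgeR test.

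Setting medium HBCD beside solvent control asked the same of larvae carrying more HBCD. Here too 0 of 96 members passed the edgeR test, against 0.0226% of all identifiers, and DESeq2 called 4 members, against 0.742%. At an unadjusted p under 0.05, 16 members were higher, against 2.94% of all identifiers, and 1 was lower, F1QEX9, against 3.35%. The number of members under that p, 17 in both directions, was 9 without medium HBCD replicate A, 10 without replicate D of medium HBCD or of the controls, and 8 without solvent control replicates D and E. Of the 96 members 69 had a log2 fold change above 0. Their median was 0.09, from -0.35 to 0.43, beside 0.00 over all identifiers tested, and it was 0.06 without medium HBCD replicate A. In 12 members all 5 medium HBCD libraries lay above all 5 controls, against 0.949% of all identifiers, and in 0 they all lay below, against 1.16%.

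A0A0R4IVW7 had the smallest p of the members in medium HBCD. Its scaled level was 1482, 1807, 1503, 1694 and 1522 CPM in the controls, 1897, 1751, 1559, 1912 and 1175 CPM in low HBCD, and 1944, 2116, 2256, 2135 and 2352 CPM in medium HBCD. Every medium HBCD library of A0A0R4IVW7 lay above every library of both other groups. The means were 1602 ± 142 CPM (SD, n = 5) in the controls and 2161 ± 154 CPM (SD, n = 5) in medium HBCD, 1.35-fold higher, with a log2 fold change of 0.43 (SE 0.12, adjusted p = 0.316 by edgeR; 0.0341 by DESeq2). In low HBCD its log2 fold change was 0.05 (95% interval -0.20 to 0.30).

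XP_005805873.1, NP_001035074.1 and NP_998272.1 differed by less. XP_005805873.1 read 1085, 1020, 1085, 1042 and 1077 scaled CPM in the controls, 1092, 1257, 1086, 1063 and 1133 in low HBCD, and 1432, 1131, 1240, 1356 and 1212 in medium HBCD, where the lowest library lay above the highest control. Its log2 fold change in medium HBCD was 0.26 (SE 0.07, adjusted p = 0.346 by edgeR; 0.0167 by DESeq2). NP_001035074.1 read 4092, 4353, 4279, 4499 and 4174 in the controls, 3953, 4490, 4244, 4248 and 4046 in low HBCD, and 5589, 4425, 4728, 5420 and 5117 in medium HBCD. Only replicate B of medium HBCD was within the control range of NP_001035074.1, and its log2 fold change was 0.24 (SE 0.07, adjusted p = 0.435 by edgeR; 0.0321 by DESeq2). NP_998272.1, the steadiest member, read 3440, 3613, 3520, 3676 and 3614 in the controls, 3251, 3607, 3402, 3417 and 3660 in low HBCD, and 4274, 3709, 4026, 4100 and 3939 in medium HBCD. All 5 medium HBCD libraries of NP_998272.1 exceeded the other 10, at a log2 fold change over the controls of 0.17 (SE 0.06, adjusted p = 0.603 by edgeR; 0.0331 by DESeq2). Without solvent control replicates D and E, the log2 fold changes in medium HBCD were 0.44 for A0A0R4IVW7, 0.26 for XP_005805873.1, 0.25 for NP_001035074.1, 0.19 for NP_998272.1 and -0.25 for F1QEX9, and none passed the edgeR test.

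**Figure D4:**
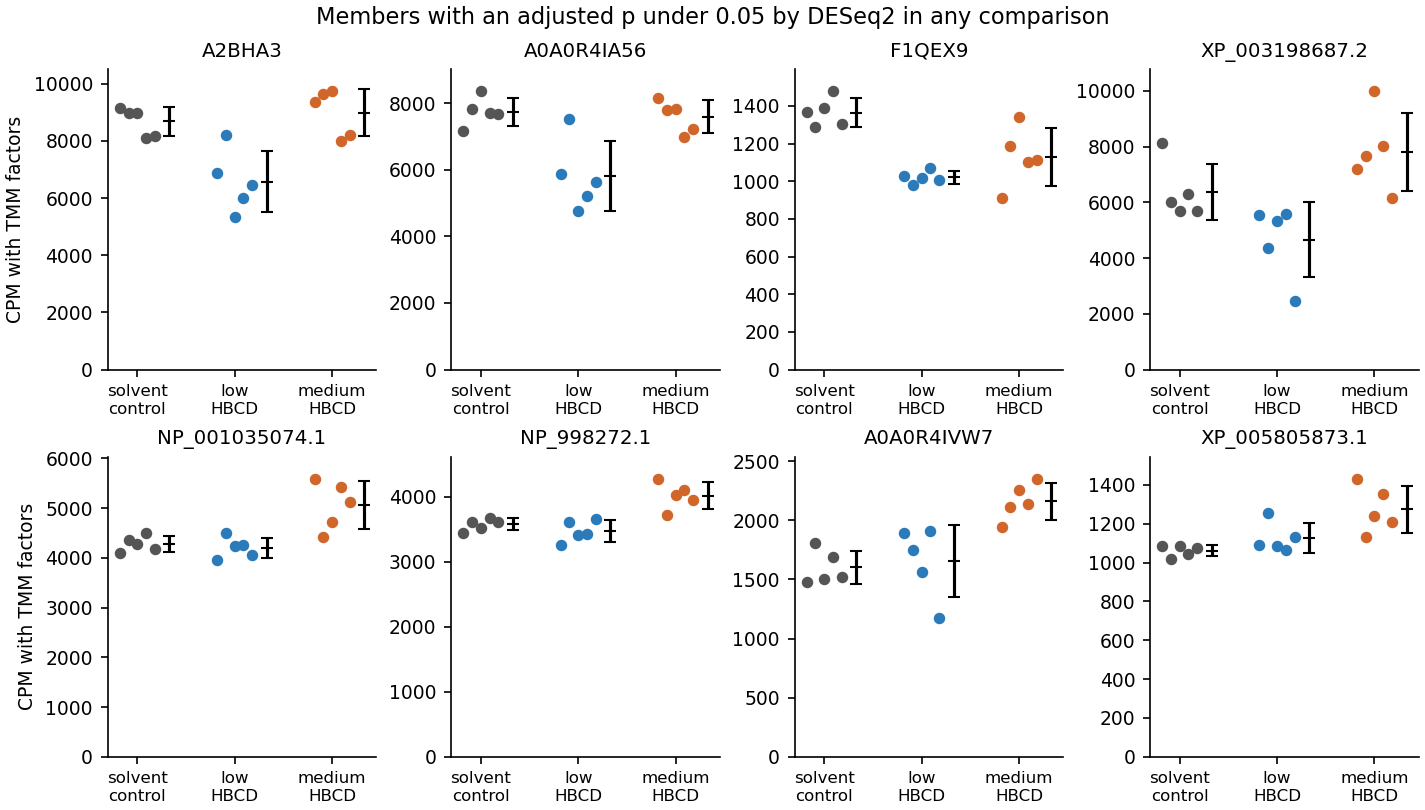
CPM with TMM factors of the 8 members with a DESeq2 adjusted p under 0.05 in any comparison, with 1 point per library in the order A to E and the group mean ± SD beside them, on axes that start at 0. F1QEX9, A2BHA3 and A0A0R4IA56 have lower means in low HBCD than in the controls, and A0A0R4IVW7 and NP_998272.1 have all 5 medium HBCD libraries above the other groups.

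The authors' deposited tables listed 3 members for low HBCD and 4 for medium HBCD, out of 96 members among 14279 identifiers. For scale, DESeq2 as run here called 0.692% (low HBCD) and 0.742% (medium HBCD) of all identifiers it tested. In the authors' deposited table for low HBCD, 3 of 99 targets were members: A0A0R4IA56 at a log2 fold change of -0.42, A2BHA3 at -0.40 and F1QEX9 at -0.42. In the authors' deposited table for medium HBCD, 4 of 105 were: A0A0R4IVW7 at 0.43, XP_005805873.1 at 0.26, NP_001035074.1 at 0.24 and NP_998272.1 at 0.17. No member was in both of the authors' deposited tables, whose comparisons share the 5 controls. The overlap of the whole tables was not counted here.

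Between medium and low HBCD, which share no libraries, most members stood higher in medium HBCD. None of the 96 passed the edgeR test, against 0.151% of all identifiers, and DESeq2 called 5 members, against 1.07%. At an unadjusted p under 0.05, 31 members were higher in medium HBCD, against 4.5% of all identifiers, and 0 were lower, against 4.31%. That number was 48 without low HBCD replicate B, 16 without replicate C, 17 without replicate D, and 14 with library totals in place of TMM factors. Of the 96, 85 had a log2 fold change above 0, with a median of 0.17, from -0.25 to 0.74, beside -0.01 over all identifiers tested. With library totals 78 were above 0, at a median of 0.11 beside -0.07 over all identifiers. In 4 members the 2 groups did not overlap, all higher in medium HBCD, against 1.02% of all identifiers. In the other direction 0 were apart, against 0.866%. Members varied together from pool to pool, so in each comparison these counts of members do not count independent results.

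A2BHA3 had the smallest p of the members between the doses, with a log2 fold change of 0.45 (SE 0.10, adjusted p = 0.154 by edgeR; 0.00216 by DESeq2), and A0A0R4IA56 had 0.39 (SE 0.10, adjusted p = 0.257 by edgeR; 0.0168 by DESeq2). Both passed the edgeR test without low HBCD replicate B, at 0.54 and 0.50. Replicate B was the highest low HBCD library of both, so leaving it out widens the difference. Over all omissions of 1 library the log2 fold changes ranged from 0.39 to 0.54 for A2BHA3 and from 0.33 to 0.50 for A0A0R4IA56. The widest difference was that of XP_003198687.2. It read 8125, 6017, 5700, 6306 and 5707 scaled CPM in the controls, 5564, 4363, 5349, 5594 and 2443 in low HBCD, and 7198, 7650, 9981, 8033 and 6154 in medium HBCD. Its low HBCD libraries all lay below both other groups, the lowest being replicate E. Its log2 fold change of medium over low HBCD was 0.74 (SE 0.20, adjusted p = 0.257 by edgeR; 0.0244 by DESeq2), a 1.67-fold ratio. NP_001035074.1 had 0.27 (adjusted p = 0.257 by edgeR; 0.00679 by DESeq2) and NP_998272.1 0.21 (adjusted p = 0.279 by edgeR; 0.00135 by DESeq2). The member of smallest p that was lower in medium than in low HBCD was NP_998365.1, at -0.16 (95% interval -0.36 to 0.05, adjusted p = 0.698 by edgeR), and at -0.07 without low HBCD replicate C. For Q7ZT36 the log2 fold change was 0.21 (95% interval -0.11 to 0.54).

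The difference between the doses appeared in all 3 sets of members, which were measured in the same pools and are not independent of each other. The median log2 fold change of medium over low HBCD was 0.17 in set 1, where 43 of 48 members were above 0, 0.21 in set 2 with 31 of 35, and 0.27 in set 3 with 11 of 13. Against the controls the sets differed: in medium HBCD the medians were 0.12, 0.07 and -0.20, and in low HBCD -0.03, -0.13 and -0.42. The 3 kinds of identifier gave medians of 0.18 (RefSeq NP), 0.17 (RefSeq XP) and 0.17 (UniProt format) between the doses.

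By library, the median member deviated from its own mean over 15 libraries by -0.06, 0.09, -0.21, -0.15 and -0.04 on the log2 scale in low HBCD replicates A to E. In medium HBCD the deviations were 0.21, 0.05, 0.03, 0.09 and 0.05, and in the controls -0.02, 0.00, 0.02, -0.05 and -0.02. All 5 medium HBCD libraries were above 0, while low HBCD replicate B, at 0.09, lay among them. Identifiers under the limit had medians nearer 0 between the doses: the median log2 fold change of medium over low HBCD was 0.00 for the 1919 identifiers between 100 and 1000 CPM, -0.01 for the 7889 between 10 and 100 CPM, -0.02 for the 3044 between 1 and 10 CPM and -0.05 for the 333 under 1 CPM. It was 0.17 for the 98 of 1000 CPM or more, which are the members and the 2 identifiers on more rows. The TMM factors, which the whole table sets, were 0.993 to 1.04 in low HBCD and 0.980 to 0.985 in medium HBCD. They hold the bulk of identifiers near 0, so the medians of the lower bands are largely set by the scaling. With library totals the median between the doses was 0.11 for the members and -0.07 for all identifiers. The members' median minus that of all identifiers was 0.18 under both scalings. A change of scaling moves all identifiers of a comparison by nearly the same amount, so this difference could hardly change and is no check of it.

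**Figure D5:**
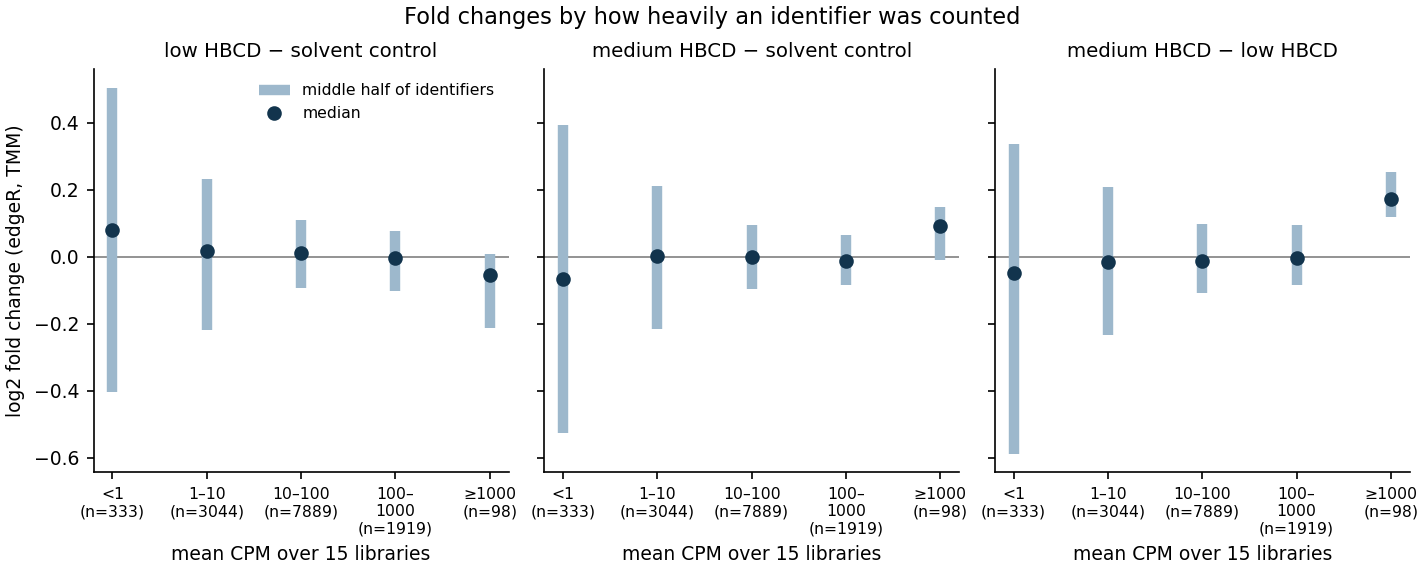
Log2 fold change by band of mean CPM in the 3 comparisons, with a point for the median identifier and a bar over the interquartile range. With TMM factors, which hold the bulk of identifiers near 0, medians lie near 0 in the bands from 1 to 1000 CPM. They lie at -0.05, 0.09 and 0.17 for the 98 identifiers of 1000 CPM or more.

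The data bounded the differences of more members closely, by percentage, than of all identifiers tested. The latter include the 3044 between 1 and 10 CPM and the 333 under 1 CPM, with median SDs of 0.38 and 0.56. The 1919 identifiers between 100 and 1000 CPM had the members' median SD, 0.17. Intervals of that band were not counted separately, so closer bounds than at similar spread were not shown. At most a 1.5-fold difference in either direction was left by the 95% interval for 74 of 96 members in low HBCD against control (77.1%, against 65.6% of all identifiers tested), for 79 in medium HBCD against control (82.3%, against 66.2%) and for 68 between the doses (70.8%, against 65.1%). At most a 2-fold difference was left for 89, 94 and 92 members (92.7, 97.9 and 95.8%, against 84.5, 84.7 and 84.9% of all identifiers tested). The largest estimate of the 3 comparisons in size was that of F1Q657 in low HBCD against control, named here after its value was seen, at a log2 fold change of -0.76 (SE 0.22; adjusted p = 0.396 by edgeR), and 0 members exceeded 1 in size.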

How the data were processed

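Polyadenylated RNA of 15 pools of whole larvae was sequenced from strand-preserving libraries, per the labels' protocols. Trim Galore, kallisto and DESeq2 are named in the submitters' processing notes, without versions; the target reference is not stated there either. The authors deposited estimated counts, not normalized, on 15551 rows. Further deposited tables hold the authors' mean normalized count as a signal, log2 fold change, test score and p-values, per the file headers. Rows were summed per identifier and rounded. CPM used the full column total. Fits used edgeR 4.0.16 in R 4.3.3 (TMM, filterByExpr, robust dispersions, all 15 libraries, no covariates, 13283 identifiers with 99.98% of counts); all 96 members passed the filter. Alternatives were DESeq2 1.42.0, limma-voom (limma 3.58.1), other scalings and filters, a replicate block and left-out libraries. Spread used log2(CPM + 0.5), and clustering SciPy 1.17.1. Library totals were 12.6 to 58.4 M. The edgeR quasi-likelihood test gives no standard error. Each SE was worked back as the size of the log2 fold change over the square root of the test's F statistic. It therefore includes the spread between pools of a group. The intervals stated are approximate and were built from this SE with a t quantile. The part of depth in their width was not tested.

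Members, lists and tests were chosen with earlier results of these data known. Named are the first 10 members, those 3 on each side of the limit, those of smallest p in each direction, the 3 steadiest and 3 least steady, and those in the authors' tables. Lists of tissue markers could not be applied, as no identifier matched a symbol. Per the labels, replicate letters are shared by the groups.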

Additional observations from a re-analysis of the deposited data

Results flagged for a closer look

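In 81 sets of 5 libraries (25 named members and 2 shares of the library, in each group), 6 held a library that stood apart, with a gap to its nearest neighbour of more than 0.71 of the range. About 1 in 20 independent sets of normally distributed values would do so. The sets here share libraries, and some members were named for their spread, so that rate does not apply directly. Values are CPM of the library total, and no cause was tested.

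Solvent control replicate B was low for Q92005, at 5605 CPM against 7160 to 7742 CPM in the other controls. Solvent control replicate A was high for XP_003198687.2, at 8115 CPM against 5657 to 6255 CPM. Low HBCD replicate B was high for NP_571263.1, at 8345 CPM against 5970 to 6484 CPM, and for NP_957139.1, at 1197 CPM against 1107 to 1132 CPM. Low HBCD replicate E was high for NP_956752.2, at 7298 CPM against 5661 to 6030 CPM, and for NP_998176.2, at 3406 CPM against 503 to 952 CPM.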

How the results depend on the processing

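Every alternative kept the sign of the 15 fold changes of single members that were followed (390 values). The 15 were picked in these same libraries for a small p, a DESeq2 call or a place in the authors' tables. Some settings also left out a library of the group not compared. Kept signs were therefore likely from the start and are not independent support. Of the 390 values, 375 stayed above the threshold of 0.05 and 15 passed it: 12 under DESeq2 and the 3 named above without low HBCD replicate B. The number of members called, 0 in each comparison, became 3, 4 and 5 with DESeq2 and stayed at 0 under other scalings, filters, limma-voom, the 10 libraries compared and rows as deposited. Leaving out 1 library gave 0 to 1, 0 to 0 and 0 to 2 calls, and medians of the members' log2 fold changes from -0.11 to -0.02, 0.06 to 0.11 and 0.13 to 0.22. With the replicate letter as a replicate block there were 0 calls in each comparison and medians of -0.06, 0.09 and 0.17. Deviations of same-letter libraries had r between -0.25 and 0.23, with 5 of 15 above 0.1. Different-letter pairs were not set beside them, so these values do not settle whether letters pair pools. The labels do not state such pairing, and the letters were not used as pairs. Without the 2 deepest controls, chosen after the data were seen, there were 0 calls and medians of -0.07, 0.07 and 0.17.

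A limit of 500 CPM gave 205 members with 33.1% of the counts, and 2000 CPM gave 44 with 18.4%. Identifiers on 1 row only held 22.1%, and those at the limit in every library 22.6%. Dividing by the total of kept identifiers, a second reading of the rule tried after the data were seen, gave 102 members. Leaving out 1 library gave 96 to 100 members and 25.4 to 26.1%. The cause of these changes, beyond the limits themselves, was not tested.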
